A study of Mus musculus with 25 samples.

Results

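The lungs of 4 FP-KO mice and 5 wild-type (WT) mice, taken on Day 14 after bleomycin, were set against each other. They were chosen by their sample titles and make up 9 of the 25 arrays of the series, each array holding the lung RNA of 1 female mouse. FP-KO mice lack FP, the receptor for prostaglandin F2α, which is encoded by Ptgfr. Both genotypes had been given bleomycin, a cancer drug toxic to lung tissue, into the trachea on Day 0 at 1 mg/kg in 40 ul of saline, so the comparison asks how the receptor's loss alters expression at the fibrotic stage. FP-KO lungs (n = 4) and WT lungs (n = 4) of Day 0 serve as the background, and the Day 7 arrays (n = 4 of each genotype) enter the estimate of spread alone. The labels used here state neither age nor strain, nor how Ptgfr was disrupted, nor whether the controls were littermates. Every array reads whole lung, so fewer cells of a type and less RNA per cell cannot be told apart in any value below.

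Prostaglandin F2α is a lipid mediator made from arachidonic acid, and FP is a G protein-coupled receptor that raises calcium in the cells that carry it. In bleomycin injury, epithelial damage is followed by inflammation and by the accumulation of fibroblasts that lay down collagen, elastin and the glycoproteins of a provisional matrix. Macrophages, transforming growth factor β (TGF-β) and the enzymes that cross-link or degrade matrix all take part in this phase.

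Values are deposited probe set intensities in arbitrary units. Differences are FP-KO minus WT on the log2 scale after quantile normalization, and ± gives the standard error from limma. The words rose, fell and passed are kept for a Benjamini-Hochberg adjusted p under 0.05 over the 12062 genes tested. The arrays read lung: the epithelial genes Sftpc, Sftpa1, Scgb1a1 and Ager each lay above 22565 on all 9 arrays, Cldn18 lay above 8469, and none of the 5 differed between the genotypes by the test.

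The Day 14 arrays form 2 sets along the second principal component, WT No. 1 to 3 with FP-KO No. 1 and 2, and WT No. 4 and 5 with FP-KO No. 3 and 4. The labels used here do not say what the sets have in common. Mouse FP-KO No. 2 lies at -28.9 on the first component, among the Day 0 arrays (-35.0 to -24.8), while the other FP-KO lungs lie at -5.37 to 1.44 and the WT lungs at 13.4 to 25.6. Its array also has an 18S ribosomal RNA intensity of 6339, against 211.7 to 746.1 in the other 3 FP-KO lungs and 190.8 to 2151.7 in the WT lungs of Day 14. One FP-KO lung of Day 0 has 6648.1. The Actb 3′ to 5′ signal ratio, a measure of RNA integrity, was 1.38 to 1.56 in FP-KO lungs and 1.21 to 1.4 in WT lungs of Day 14, with FP-KO No. 2 the highest, and its part in the results was not tested. Results are also given without that mouse and within each set.

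Ptgfr itself was the check on the genotype labels. Its intensity was 21.1, 38.4, 48.0 and 28.8 in FP-KO lungs No. 1 to 4, against 176, 128, 159, 187 and 254 in WT lungs No. 1 to 5. The groups did not overlap, and the difference was -2.49 ± 0.23 (adjusted p = 8.47e-07), with 1 FP-KO array under the floor of 24.3 at which low values were set. The loss was of like size within the first set without FP-KO No. 2 (-2.68) and within the second set (-2.62), and was already there on Day 0 (-2.86). Of 4 further Ptgfr probe sets 3 passed, at -2.55, -1.54 and -1.46, the last a bound because all 4 FP-KO values were under the floor, and the remaining one missed the threshold (-0.73, adjusted p over probe sets = 0.264).

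The gene that stood furthest from WT in the upward direction was Ifi44l, an interferon-induced gene that lies 0.036 Mb from Ptgfr. Its intensity was 209, 159, 200.3 and 188 in FP-KO lungs No. 1 to 4, against 1.5, 3.8, 9.5, 10.7 and 17.0 in WT lungs No. 1 to 5. All 5 WT arrays were under the floor, so that the difference of 2.91 ± 0.10 (adjusted p = 6.06e-15) is a lower bound. It was 3.07 on Day 0, where Ifi44l and Ptgfr were the 2 genes that passed between the genotypes (0.0166% of genes tested), and the test of a change in the genotype difference between Day 0 and Day 14 gave adjusted p = 0.649.

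Genes near Ptgfr were counted apart. Of 87 tested genes within 20 Mb of it on chromosome 3, 10 were higher and 9 lower, 21.8% against 10.5% of all genes, and 7 of the 87 passed without FP-KO No. 2, against 3.25% of all genes. On Day 0 the same window held 1, Ifi44l. Wdr63, a ciliary dynein-associated protein gene 5.69 Mb away, had an intensity of 321, 491, 374 and 459 in FP-KO lungs No. 1 to 4, against 183, 153, 197, 182 and 176 in WT lungs No. 1 to 5. Every FP-KO value lay above every WT value, for a difference of 1.15 ± 0.16 (adjusted p = 0.000428). Farther in the other direction, Ptger3 is described with the other prostanoid receptors. Further differences of at least 1 in the window were those of St6galnac5, a sialyltransferase gene (1.14), and Negr1, a neural cell adhesion gene (-1.10), and these and Wdr63 were picked after their values were seen. The call for Negr1 was lost without any 1 of FP-KO No. 1, 2 or 4 or WT No. 1, 2 or 3. On Day 0 Negr1 differed by a like amount (-1.09), while Wdr63 (0.35) and St6galnac5 (0.23) differed by less than at Day 14. Gipc2 and St6galnac3, also picked after their values were seen, stood at -0.76 and -0.71 on Day 0 and fell by -0.41 and -0.76 at Day 14. None of these Day 0 differences passed.

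**Figure D1:**
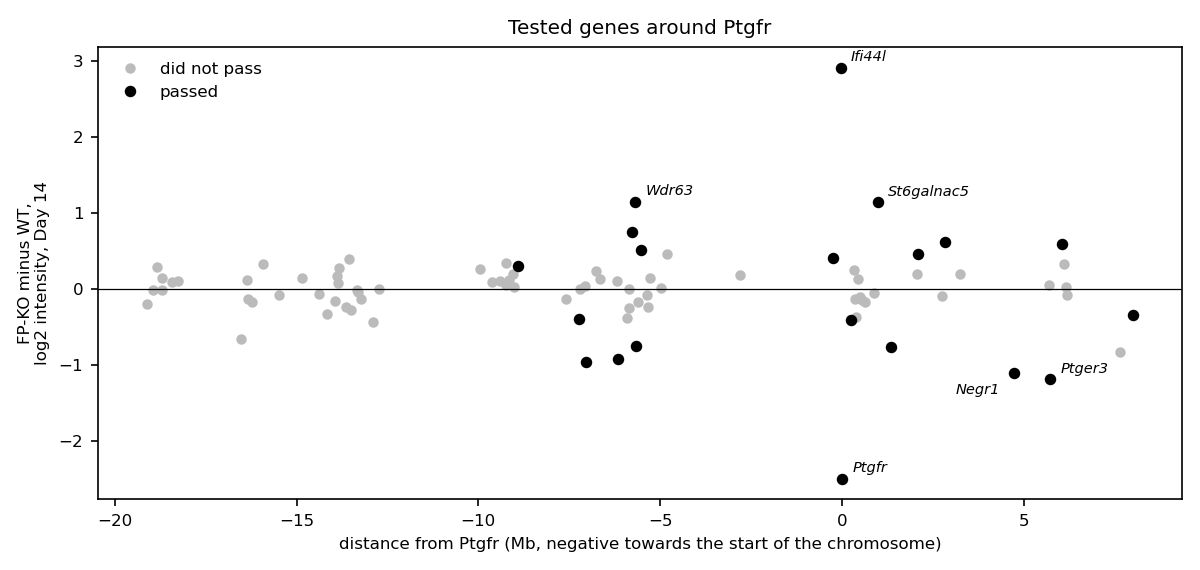
FP-KO minus WT difference at Day 14 (log2 intensity, vertical axis) of the tested genes around Ptgfr against their distance from it in Mb (horizontal axis, ending where the chromosome ends). Black points passed and grey points did not. Ifi44l at 2.91 and Ptgfr at -2.49 lie furthest from 0, and 19 of the 87 neighbours passed.

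Across the genome 590 genes were higher and 680 lower in FP-KO lungs at Day 14, together 10.5% of those tested (4.89% higher and 5.64% lower), of which 39 were higher and 137 lower by at least 1 on the log2 scale. Scaling the arrays to a common median in place of quantile normalization gave 217 higher and 550 lower, so the share of higher calls depends on the scaling. Without FP-KO No. 2, 192 were higher (1.59%) and 200 lower (1.66%), together 3.25%. Without it and with the set of arrays as a block 154 were higher (1.28%) and 161 lower (1.33%), together 2.61%. Without WT No. 2, 344 were higher and 391 lower, and without WT No. 3, 383 and 421. The count of genes higher by at least 1 was 17 without FP-KO No. 2 and 62 without WT No. 5, and the count lower by at least 1 was 48 without FP-KO No. 2. Of the 1270 called genes 1270 kept their sign without FP-KO No. 2, at a median 0.849 of the full size, and 1268 had the same sign in the second set and in the first set without it, the calls having been made with these same arrays. Within the second set alone, with 2 arrays of each genotype, Ifi44l rose and Ptgfr fell and no other gene passed. The sets share no Day 14 array, and of the 1375 genes that passed in the first set (11.4%) 1256 (91.3%) had the same sign in the second, against 69.0% of all genes. The first set includes FP-KO No. 2. The median size of these differences was 0.644 in the first set and 0.267 in the second, the latter counted along the sign of the first. The 4 FP-KO values and the 5 WT values did not overlap for 1324 genes (11%), 866 of which passed.

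The genotype difference at Day 14 was tested against that on Day 0 as an interaction, and 376 genes passed (3.12% of those tested), 154 with a more positive (1.28%) and 222 with a more negative difference at Day 14 (1.84%). Wdfy1, an endosomal adaptor gene, was the 1 gene whose genotype difference itself differed between the sets (second minus first 1.92, adjusted p = 0.000573). It had 269, 352, 422 and 403 in FP-KO lungs No. 1 to 4, against 1036, 925, 877, 348 and 322 in WT lungs No. 1 to 5. Within the first set WT was high and within the second the genotypes lay together, and the call over all 9 arrays (-0.82) was lost without FP-KO No. 1 or 2 or WT No. 1, 2 or 3. Wdfy1 was singled out after its values were seen.

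Among the 12 largest deficits in FP-KO lungs that passed with no overlap between the groups were those of Chl1, Frzb and Tgm1. Chl1, a neural cell adhesion molecule of the L1 family, had an intensity of 57.5, 51.0, 87.3 and 107 in FP-KO lungs No. 1 to 4, against 259, 671, 594, 365 and 292 in WT lungs No. 1 to 5. The highest FP-KO value was well below the lowest WT value, and the difference was -2.52 ± 0.35 (adjusted p = 0.000428, -2.31 without FP-KO No. 2). On Day 0 it was low in both genotypes, at 36.4 ± 15 in FP-KO lungs and 33.6 ± 17.5 in WT lungs (SD, n = 4 each), and the change in the genotype difference passed (adjusted p = 0.0158). Frzb, a secreted Wnt antagonist, had 42.8, 28.4, 111 and 49.5 in FP-KO lungs No. 1 to 4, against 136, 302, 326, 159.7 and 149.7 in WT lungs No. 1 to 5. The difference was -2.02 ± 0.40 (adjusted p = 0.00371), with FP-KO No. 3 nearest to WT. Tgm1, a transglutaminase of cornified epithelium, had 91.6, 51.9, 116 and 95.0 in FP-KO lungs No. 1 to 4, against 233, 342, 324, 227 and 169.8 in WT lungs No. 1 to 5, a difference of -1.60 ± 0.27 with no overlap (adjusted p = 0.00151).

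Several of the largest deficits were deepest in FP-KO No. 2. Ereg, which encodes the EGF receptor ligand epiregulin, had 83.0, 20.3, 158 and 64.1 in FP-KO lungs No. 1 to 4, against 199, 203, 204, 278 and 182 in WT lungs No. 1 to 5. FP-KO No. 2 was under the floor and the other FP-KO lungs still lay below WT, at -1.66 ± 0.35 with all arrays (adjusted p = 0.00492) and -1.17 without that mouse (adjusted p = 0.0291). Slfn9, a Schlafen family member, had 127, 17.3, 104 and 91.8 in FP-KO lungs No. 1 to 4, against 209, 274, 209, 276 and 202 in WT lungs No. 1 to 5, again with FP-KO No. 2 under the floor. The difference was -1.66 ± 0.36 (adjusted p = 0.00598), and the other 5 tested Schlafen genes did not pass. Fam167b, a gene of little-known role, differed by -1.77 ± 0.36 (adjusted p = 0.0045), with 12.1 to 103 in FP-KO lungs and 142 to 222 in WT lungs. Gtse1, a mitotic p53 regulator, ran from 13.8 to 94.3 in FP-KO lungs and 103 to 149 in WT lungs and differed by -1.60 ± 0.45 (adjusted p = 0.0252), a call that was lost without FP-KO No. 2 or 3 or WT No. 2 or 3.

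**Figure D2:**
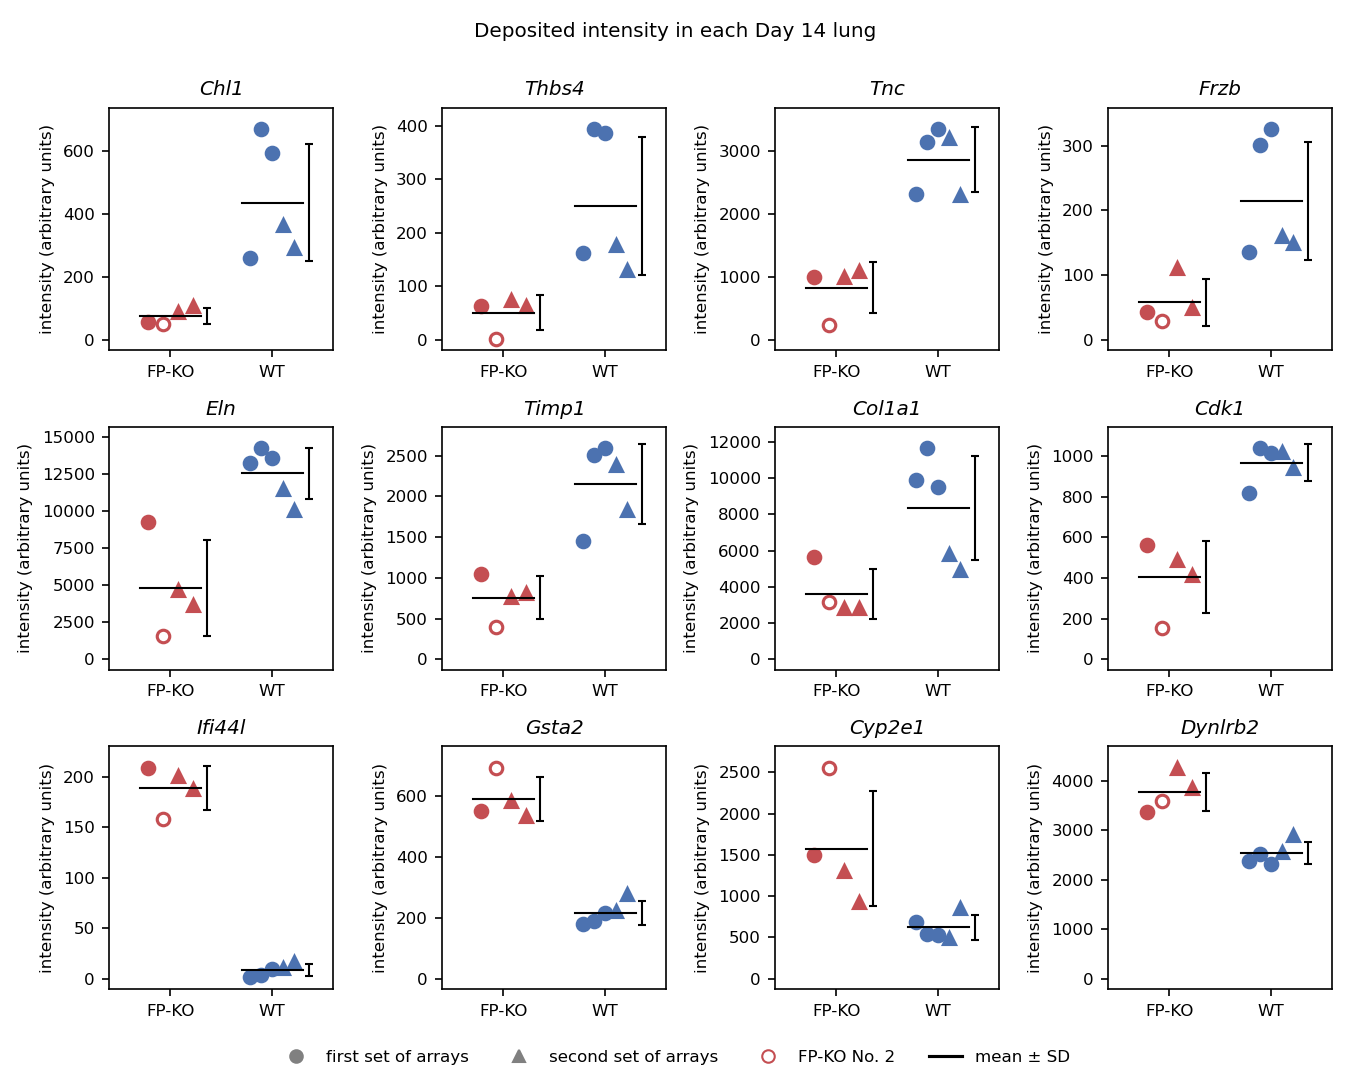
Deposited intensity (arbitrary units, linear axes) of 12 genes in each Day 14 lung, FP-KO left and WT right. Circles are the first set of arrays, triangles the second, and the open circle is FP-KO No. 2; lines are means and bars SD. Chl1 to Cdk1 lie lower in FP-KO lungs and Ifi44l to Dynlrb2 higher, and the groups overlap in Col1a1.

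Among the 12 largest gains in FP-KO lungs that passed with no overlap between the groups were those of Gsta2, Ces1f and Tecrl. Gsta2, a glutathione transferase that detoxifies lipid peroxidation products, had an intensity of 549.5, 692, 584 and 533 in FP-KO lungs No. 1 to 4, against 178, 188, 215, 222 and 278 in WT lungs No. 1 to 5. The lowest FP-KO lung lay far above the highest WT lung, for a difference of 1.42 ± 0.22 (adjusted p = 0.000737, 1.35 without FP-KO No. 2). Ces1f, a liver-type carboxylesterase, had 459, 843, 217 and 175 in FP-KO lungs No. 1 to 4, against 137, 100.4, 103, 80.2 and 91.3 in WT lungs No. 1 to 5. Its values spread widely among FP-KO lungs, and the call (1.72 ± 0.44, adjusted p = 0.015) was lost without FP-KO No. 2 (1.29, adjusted p = 0.098). Tecrl, a gene of heart muscle, had 148, 349, 329.8 and 210.1 in FP-KO lungs No. 1 to 4, against 60.6, 90.9, 76.5, 115 and 94.6 in WT lungs No. 1 to 5, with no overlap and a difference of 1.42 ± 0.24 (adjusted p = 0.00151). Chrdl1, which encodes a secreted antagonist of bone morphogenetic proteins, differed by 1.32 ± 0.26 (adjusted p = 0.00345), and Bex2, a small adaptor protein gene, by 1.31 ± 0.24 (adjusted p = 0.00221). FP-KO No. 2 lay near the Day 0 level of both, with Chrdl1 at 159.9 to 331 in FP-KO lungs and 59.8 to 124 in WT lungs on Day 14 and at 318 ± 83.7 in FP-KO lungs and 307 ± 51.0 in WT lungs on Day 0 (SD, n = 4 each). Ifna2, an interferon α gene, passed at 1.53 ± 0.48 (adjusted p = 0.0421), with WT No. 2 under the floor, but lost its call without any 1 of FP-KO No. 1 or 2 or WT No. 2, 4 or 5.

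With FP-KO No. 2 left out and the set of arrays as a block, the smallest p belonged to Ifi44l and Ptgfr, as before. Next among the named higher genes was Aldh1a1, a retinal dehydrogenase, with 19366, 27218, 19977 and 17559 in FP-KO lungs No. 1 to 4, against 12864, 13768, 12325, 12100.2 and 12645 in WT lungs No. 1 to 5. Its groups did not overlap and it was higher by 0.62 ± 0.086 with all arrays and by 0.56 in that fit (adjusted p = 0.000495). Cyp2d22, a cytochrome P450, was higher by 0.85 (adjusted p = 0.00299) and Mgst1, a membrane glutathione transferase, by 0.37 (adjusted p = 0.00469). Ak7, an adenylate kinase of cilia, was higher by 0.57 (adjusted p = 0.00363), Fam216b by 0.79 (adjusted p = 0.00119) and the cilium dynein chain Dynlrb2 by 0.55 (adjusted p = 0.00566). In the lower direction stood Mmp14, Col1a1, the imprinted gene Nnat (-0.77, adjusted p = 0.00363) and Rgs4, a brake on Gq signalling (-1.10, adjusted p = 0.00469). Rgs4 had 319, 386, 323 and 276 in FP-KO lungs No. 1 to 4, against 752, 836, 893, 604 and 505 in WT lungs No. 1 to 5, and FP-KO No. 2 was the highest of its group here. Snai1, a transcription factor of epithelial-mesenchymal transition (-0.82, adjusted p = 0.0047), the parathyroid hormone receptor Pth1r (-0.75, adjusted p = 0.00542) and the villin-like actin binder Vill (-0.60, adjusted p = 0.00566) completed these calls.

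Most fibrillar collagen chains, which form the tensile fibres of scar, were lower in FP-KO lungs. Of 7 tested 6 fell, none rose, and the median difference was -0.86, against -0.00225 over all genes. Col1a1, the main chain of type I collagen, had an intensity of 5664, 3141, 2849 and 2828 in FP-KO lungs No. 1 to 4, against 9901, 11668, 9544, 5815 and 4943 in WT lungs No. 1 to 5. FP-KO No. 1 lay above WT No. 5, and WT No. 4 and 5 lay well below WT No. 1 to 3, yet the difference was near equal within the first set without FP-KO No. 2 (-0.88) and within the second (-0.91), and -1.21 ± 0.23 over all arrays (adjusted p = 0.00325). Its partner chain Col1a2 also fell (-0.69), as did the type V chains Col5a1 (-0.98), Col5a2 (-1.03) and Col5a3 (-0.86), which set fibre width. Col3a1, of type III collagen, was at 13888 to 21941 in FP-KO lungs and 21651 to 25267 in WT lungs (-0.50 ± 0.15, adjusted p = 0.0323), a call that was lost without FP-KO No. 2 or 3 or WT No. 1, 2 or 3. Without FP-KO No. 2, 4 of the 7 fell, with Col1a1 at -1.17 (adjusted p = 0.0195). The summed intensity of the listed chains ran from 28962 to 48242 in FP-KO lungs and from 50932 to 67608 in WT lungs, above both the Day 0 groups (16938 to 30930) except in FP-KO No. 2. Col5a3 lost its call without FP-KO No. 2 or 3 or WT No. 2 (-1.06 to -0.67 over single leave-outs).

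Other collagens were lower in part. Of 13 other chains 6 fell and 1 rose (median -0.40), among them Col8a1 (-0.58), Col6a3 (-0.53), Col18a1 (-0.51) and Col16a1 (-0.51), while Col23a1, a transmembrane collagen, was higher (0.46). The count lower was 0 without FP-KO No. 2, 2 without FP-KO No. 3 or WT No. 2 and 3 without FP-KO No. 4 or WT No. 1 or 3, and the 1 higher was lost without FP-KO No. 2. Of 18 basement membrane collagens and laminins 4 fell (median -0.19), and 2 without FP-KO No. 2. Lama1, a laminin chain rare in adult lung, had 111, 51.6, 61.8 and 36.5 in FP-KO lungs No. 1 to 4, against 169, 201, 286, 139 and 119 in WT lungs No. 1 to 5. The groups did not overlap, at -1.60 ± 0.26 (adjusted p = 0.00108), and both Day 0 groups were under the floor on average, at 17.1 in FP-KO lungs and 4.35 in WT lungs. Lamb3, a chain of epithelial laminin (-0.61), and the basement membrane chains Col4a1 (-0.48) and Col4a2 (-0.41) fell by less. Col6a3 (-0.40), Col4a1 (-0.38) and Col4a2 (-0.37) no longer passed without FP-KO No. 2. Col8a1 lost its call without FP-KO No. 2, 3 or 4 or WT No. 2, 3 or 4 (-0.71 to -0.52 over single leave-outs), Col18a1 without FP-KO No. 2, 3 or 4 or WT No. 1, 2 or 3 (-0.62 to -0.44) and Col16a1 without FP-KO No. 2, 3 or 4 or WT No. 1 or 2 (-0.61 to -0.37).

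Enzymes that modify collagen had modest deficits. Of 24 hydroxylases, cross-linkers and processing genes 7 fell and 1 rose (median -0.18), with the prolyl hydroxylase P4ha3 at -0.90 ± 0.27, the cross-linking oxidases Loxl3 at -0.62 and Loxl1 at -0.45, and the procollagen protease Bmp1 at -0.61. Lox, the founding member of the oxidase family, did not pass (-0.62, adjusted p = 0.224), with FP-KO No. 1 at 4064 among WT lungs of 2671 to 4747. Pcolce2, an enhancer of procollagen cleavage, was higher (0.94 ± 0.19, adjusted p = 0.0045) and kept its call without FP-KO No. 2 (0.83, adjusted p = 0.0308). The list's count of lower genes was 0 without FP-KO No. 2, 2 without WT No. 2 or 3 and 3 without FP-KO No. 4. Loxl1 (-0.33) and Bmp1 (-0.46) no longer passed without FP-KO No. 2. P4ha3 lost its call without FP-KO No. 2 or 4 or WT No. 1, 2 or 3 (-1.10 to -0.58 over single leave-outs) and Loxl3 without FP-KO No. 2 or 4 or WT No. 2 or 3 (-0.77 to -0.51).

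Elastin, the rubber-like protein of elastic fibres, was lower in FP-KO lungs. Eln had an intensity of 9218, 1589.7, 4645 and 3639 in FP-KO lungs No. 1 to 4, against 13214, 14219, 13586, 11459.7 and 10069 in WT lungs No. 1 to 5. FP-KO No. 1 lay just under WT No. 5 and FP-KO No. 2 lay nearest to the Day 0 mean of its genotype (1030.0), and the difference of -1.69 ± 0.36 (adjusted p = 0.0058) became -1.24 without FP-KO No. 2 (adjusted p = 0.0388). It was -0.58 within the first set without that mouse (adjusted p = 0.705) and -1.41 within the second (adjusted p = 0.387). Of 14 elastic fibre genes 4 fell and 1 rose (median -0.29): the latent TGF-β binding protein Ltbp2 (-0.99), the microfibril protein Mfap5 (-0.75) and Emilin1 (-0.63) beside Eln, with the fibulin Efemp1 higher (0.47). The count lower was 2 without FP-KO No. 2 or WT No. 1, 2 or 3, and Efemp1 lost its call without FP-KO No. 2. Mfap5 lost its call without FP-KO No. 2 or WT No. 1, 2 or 3 (-0.94 to -0.41 over single leave-outs) and Emilin1 without FP-KO No. 2, 3 or 4 or WT No. 1, 2 or 3 (-0.78 to -0.51).

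Matricellular glycoproteins, which tune cell adhesion during repair, held the largest matrix deficits. Of 24 tested 11 fell and 2 rose, although the median of the list was -0.14. Tnc, which encodes tenascin C of provisional matrix, had 991, 235, 992 and 1098 in FP-KO lungs No. 1 to 4, against 2312, 3135, 3346, 3205 and 2289.6 in WT lungs No. 1 to 5. FP-KO No. 2 lay at the Day 0 level and the other FP-KO lungs well below the lowest WT lung, for -2.03 ± 0.37 with all arrays (adjusted p = 0.00217) and -1.47 without that mouse (adjusted p = 0.00706). Thbs4, a thrombospondin, had 64.0, 2.5, 74.3 and 63.4 in FP-KO lungs No. 1 to 4, against 163, 395, 387, 177 and 131 in WT lungs No. 1 to 5. All 4 FP-KO values lay below those of WT (-2.10 ± 0.33, adjusted p = 0.000776), with WT No. 2 and 3 far above the other WT lungs. The thrombospondins Thbs2 (-1.23) and Thbs1 (-1.17), the collagen triple helix repeat gene Cthrc1 of activated fibroblasts (-1.24 ± 0.20, adjusted p = 0.00098), the Wnt-induced Ccn4 (-1.18), Ccn1 (-0.91) and fibronectin, Fn1 (-0.77), also fell. The 2 that rose were Ecm2 (0.88) and Ccn3 (0.43), and Ccn2, a classic TGF-β target, did not pass (-0.03, adjusted p = 0.93). The count lower was 6 without WT No. 2 and 7 without FP-KO No. 2 or 3 or WT No. 3, and the count higher was 0 without FP-KO No. 2 or WT No. 2, 3 or 4 and 1 without FP-KO No. 3 or 4. Thbs2 lost its call without FP-KO No. 3 or 4 or WT No. 2 (-1.51 to -0.95 over single leave-outs), Ccn1 without FP-KO No. 2 or WT No. 2 or 3 (-1.0 to -0.84) and Ecm2 without FP-KO No. 2 or WT No. 2, 3 or 4 (0.70 to 1.04). Ccn3 lost its call without FP-KO No. 1, 2, 3 or 4 or WT No. 1, 2, 3 or 4 (0.35 to 0.59).

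**Figure D3:**
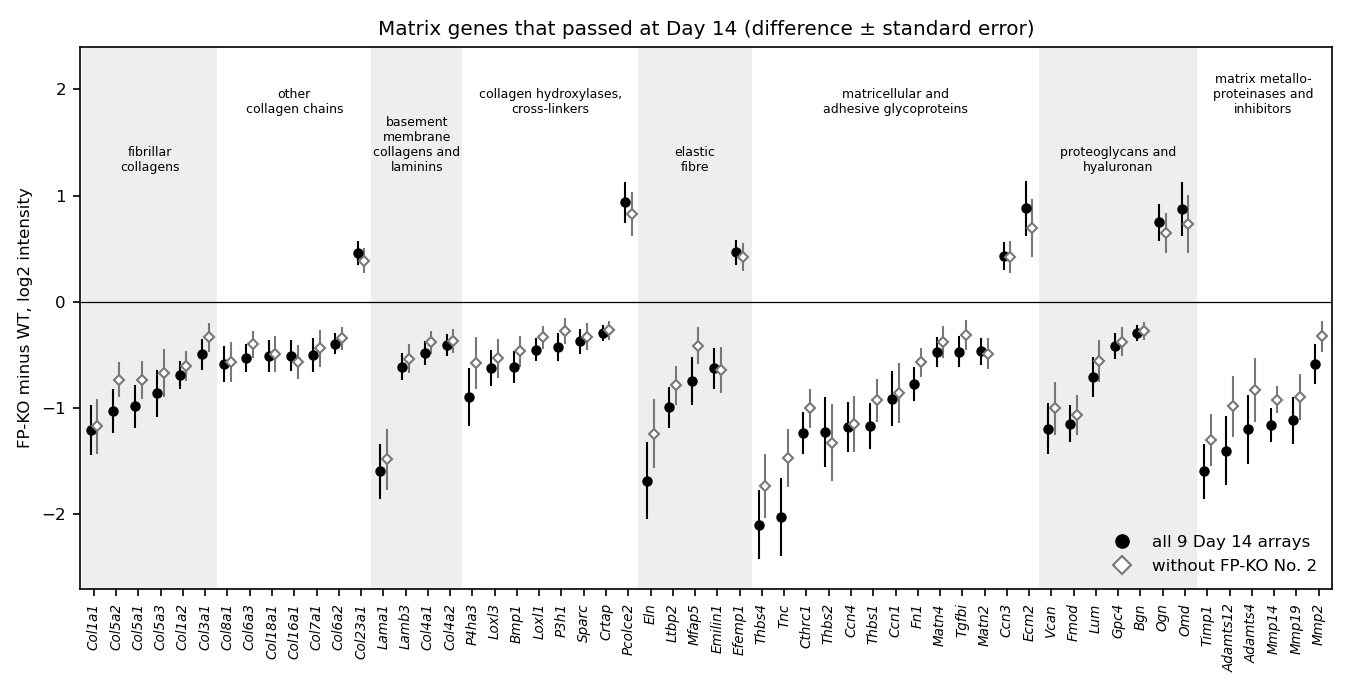
FP-KO minus WT difference at Day 14 (log2 intensity, bars standard error) of the matrix and protease genes that passed, by list. Black points use all 9 arrays and open diamonds leave out FP-KO No. 2. The diamonds keep the sign of the black points in every gene drawn, and most lie nearer to 0.

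Proteoglycans, which space collagen fibres and hold water, moved both ways. Of 19 tested 5 fell and 2 rose (median -0.25). Versican, Vcan, which swells provisional matrix (-1.19), and the fibre-binding Fmod (-1.15) fell, and both kept their calls without FP-KO No. 2 (adjusted p = 0.0316 and 0.0053). Lum (-0.71), Gpc4 (-0.42) and Bgn (-0.29) fell by less. The small leucine-rich proteoglycans Ogn (0.75 ± 0.17) and Omd (0.87 ± 0.25) were higher. Lower proteoglycan genes numbered 2 without FP-KO No. 2 and 3 without WT No. 2 or 3, and the count higher was 0 without FP-KO No. 2 and 1 without FP-KO No. 1 or WT No. 2, 3 or 4. Ogn (0.65) no longer passed without FP-KO No. 2. Lum lost its call without FP-KO No. 2 or WT No. 2 or 3 (-0.80 to -0.56 over single leave-outs), Gpc4 without FP-KO No. 2, 3 or 4 or WT No. 3 or 4 (-0.49 to -0.36) and Bgn without FP-KO No. 2 or WT No. 2 (-0.35 to -0.26). Omd lost its call without FP-KO No. 1 or 2 or WT No. 2, 3 or 4 (0.73 to 1.03).

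Some enzymes that degrade matrix, and 1 inhibitor of them, were lower. Of 20 matrix metalloproteinases, related proteases and inhibitors 6 fell and none rose (median -0.51), and 3 fell without FP-KO No. 2. Timp1, a secreted metalloproteinase inhibitor, had 1041, 401, 766 and 809 in FP-KO lungs No. 1 to 4, against 1456, 2509, 2594, 2390.1 and 1831 in WT lungs No. 1 to 5. Every FP-KO lung lay below every WT lung (-1.60 ± 0.26, adjusted p = 0.00117), and the difference was -1.30 without FP-KO No. 2. Mmp14, a membrane-bound collagenase, had 1917, 889.5, 1632 and 1522 in FP-KO lungs No. 1 to 4, against 3042, 3762, 3300.2, 3342 and 2569 in WT lungs No. 1 to 5. The difference was -1.16 ± 0.16 (adjusted p = 0.000428), with -0.82 within the first set without FP-KO No. 2 and -0.88 within the second. The aggrecanase Adamts4 (-1.20, FP-KO No. 2 under the floor), Adamts12 (-1.40), Mmp19 (-1.12) and the gelatinase Mmp2 (-0.59) fell as well. Of 14 cathepsin and plasminogen system genes 8 fell (median -0.36), led by the collagen-degrading Ctsk (-0.94 ± 0.22), the asparaginyl protease Lgmn (-0.69), Ctsh (-0.52) and Ctsd (-0.50), but 1 without FP-KO No. 2, Ctsk. Adamts12 (-0.98), Lgmn (-0.50), Ctsh (-0.39) and Ctsd (-0.34) no longer passed without FP-KO No. 2. Adamts4 lost its call without FP-KO No. 2 or WT No. 2 or 3 (-1.43 to -0.83 over single leave-outs) and Mmp2 without FP-KO No. 2, 3 or 4 or WT No. 1, 2 or 3 (-0.78 to -0.33).

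Signals that drive fibroblasts passed in either direction. Of 27 TGF-β and activin ligands and receptors 3 fell and 3 rose (median -0.16). That is 11.1% each way, against 5.64% lower and 4.89% higher of all genes. The integrin chain Itgb6, which activates latent TGF-β on epithelium (-0.86), the activin-binding Fstl1 (-0.78 ± 0.13, adjusted p = 0.00098) and the ligand Tgfb3 (-0.46) fell. The coreceptor Tgfbr3 (0.61) was higher, as were the receptors Acvr2a (0.46) and Bmpr2 (0.31), both named after their values were seen. The count higher was 1 without FP-KO No. 2, and the count lower was 1 without FP-KO No. 2, 5 without WT No. 5 and 6 without FP-KO No. 1. Of 19 TGF-β response genes 7 fell (36.8%) and 2 rose (10.5%), at a median of -0.11. Among the 7 were the factors Junb (-0.72) and Bhlhe40 (-0.40). The matrix genes Col1a1, Fn1, Ltbp2 and Tgfbi, counted in the matrix lists above as well, were also among the 7. Smad6, Pmepa1 and Bambi passed too, and the 2 that rose are among them. The response genes higher numbered 1 without FP-KO No. 2 or WT No. 3 or 4. Tgfb3 (-0.41), Tgfbr3 (0.43), Bmpr2 (0.26) and Bhlhe40 (-0.28) no longer passed without FP-KO No. 2. Itgb6 lost its call without FP-KO No. 2 or WT No. 4 (-1.06 to -0.53 over single leave-outs).

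Contractile genes of myofibroblasts and smooth muscle showed little. Of 20 tested 2 fell, the tropomyosins Tpm1 (-0.51 ± 0.090, adjusted p = 0.0019) and Tpm2 (-0.42), none rose, and the median was -0.19. The 2 are 10% of the list, against 5.64% lower of all genes. The count lower was 1 without WT No. 1, 2 or 3 and 6 without WT No. 5. Of 16 resident fibroblast markers 5 rose and 2 fell (median 0.13): the integrin Itga8 (0.59 ± 0.099, adjusted p = 0.00144), the methyltransferase Inmt (0.69) and Scube2 (0.71) were higher, and the Wnt antagonist Sfrp1 was lower (-1.18 ± 0.22, adjusted p = 0.00258). The count higher was 3 without FP-KO No. 2 or WT No. 2 or 3. The summed intensity of the fibroblast markers ran from 119842 to 138041 in FP-KO lungs and from 89061 to 107404 in WT lungs. Tpm2 lost its call without FP-KO No. 3 or 4 or WT No. 1, 2 or 3 (-0.55 to -0.32 over single leave-outs).

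Growth factors moved both ways. Of 25 Wnt, IGF and EGF family genes 6 fell and 4 rose (median -0.27). Igf1, a growth factor of macrophages and fibroblasts, had 2549, 1087, 2145 and 2271 in FP-KO lungs No. 1 to 4, against 4538, 4558, 5577, 4509.6 and 4053 in WT lungs No. 1 to 5. No FP-KO value reached the lowest WT value (-1.29 ± 0.23, adjusted p = 0.00179), and the difference was -0.95 within the first set without FP-KO No. 2 and -0.94 within the second. The count higher was 2 without FP-KO No. 2 or WT No. 4. The secretory chaperone list holds folding, transport and regulatory genes of the endoplasmic reticulum. Of its 24 genes 2 fell (8.33%, against 5.64% lower of all genes). They were the retrieval receptor Kdelr3 (-0.73) and the transcription factor Creb3l1 (-0.44), neither of them a chaperone. The count was 0 without WT No. 2 or 3 and 1 without FP-KO No. 2, 3 or 4 or WT No. 1. Kdelr3 lost its call without FP-KO No. 2 or WT No. 1, 2 or 3 (-0.91 to -0.45 over single leave-outs) and Creb3l1 without FP-KO No. 3 or 4 or WT No. 2 or 3 (-0.50 to -0.39).

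Proliferation genes made the most uniform list. Of 37 cell cycle genes tested 33 fell (89.2%) and none rose, all 37 differences were below 0, and the median was -1.0 against -0.00225 over all genes. Cdk1, the kinase that starts mitosis, had an intensity of 564, 155, 490 and 415 in FP-KO lungs No. 1 to 4, against 820.4, 1039, 1013, 1022 and 941 in WT lungs No. 1 to 5. FP-KO No. 2 lay at the Day 0 level and FP-KO No. 1, 3 and 4 lay between Day 0 and WT, with means on Day 0 of 227.8 in FP-KO lungs and 162.7 in WT lungs. Its difference was -1.41 ± 0.30 (adjusted p = 0.00492), and -0.97 without FP-KO No. 2 (adjusted p = 0.025). The mitotic kinase Melk (-1.60 ± 0.37, adjusted p = 0.00822), thymidine kinase Tk1 (-1.37 ± 0.28) and the ribonucleotide reductase subunit Rrm2 (-1.26 ± 0.27) fell most with it. Without FP-KO No. 2, 18 of the 37 fell, and with the set as a block as well 9 did. The list median was -0.61 within the first set without that mouse and -0.88 within the second.

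Promoters of proliferation genes are known for short motifs: the CCAAT box, bound by NF-Y, and the cell cycle homology region TTTGAA. Windows of 250 bases before to 50 after the gene's start were searched on both strands for CCAAT, which is ATTGG on the other strand, and for TTTGAA, which is TTCAAA there, in RefSeq sequence of GRCm38.p6. Of the 30 tested members with a window 25 (83.3%) hold CCAAT, against 41.1% of 27025 genes, and 18 (60.0%) hold TTTGAA, against 20.2%. Cdc20, an activator of the anaphase-promoting complex, and Ube2c, its ubiquitin-conjugating enzyme, are shown because both motifs stand in each, and were picked after their values were seen. Cdc20 had 1187, 576, 867 and 837 in FP-KO lungs No. 1 to 4, against 1841, 2039, 1896, 2056 and 1810 in WT lungs No. 1 to 5, and Ube2c had 529, 346, 435 and 363 in FP-KO lungs No. 1 to 4, against 1013, 993, 1168, 853 and 757 in WT lungs No. 1 to 5. Neither overlapped between the genotypes, at -1.22 ± 0.20 (adjusted p = 0.00127) and -1.22 ± 0.23 (adjusted p = 0.00245). The Cdc20 window is chr4:118437294-118437593 on the minus strand, with 2 CCAAT boxes and 1 TTTGAA, and the Ube2c window is chr2:164769679-164769978 on the plus strand, with 6 and 1, all in capitals below, 5′ to 3′. A match is a run of letters, not shown to be a bound site.
Cdc20: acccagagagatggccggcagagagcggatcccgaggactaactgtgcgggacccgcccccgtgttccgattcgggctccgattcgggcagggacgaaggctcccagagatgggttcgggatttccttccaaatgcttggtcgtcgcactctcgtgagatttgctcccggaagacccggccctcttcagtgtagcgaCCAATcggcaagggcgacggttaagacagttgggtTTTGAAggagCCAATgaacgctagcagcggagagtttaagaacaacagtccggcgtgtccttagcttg
Ube2c: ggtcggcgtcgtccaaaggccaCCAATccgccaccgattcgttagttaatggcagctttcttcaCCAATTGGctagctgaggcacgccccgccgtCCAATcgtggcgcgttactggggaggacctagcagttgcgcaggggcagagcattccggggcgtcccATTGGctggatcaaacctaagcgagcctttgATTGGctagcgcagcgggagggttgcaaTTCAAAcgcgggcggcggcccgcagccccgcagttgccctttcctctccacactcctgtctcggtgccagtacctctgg

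**Figure D4:**
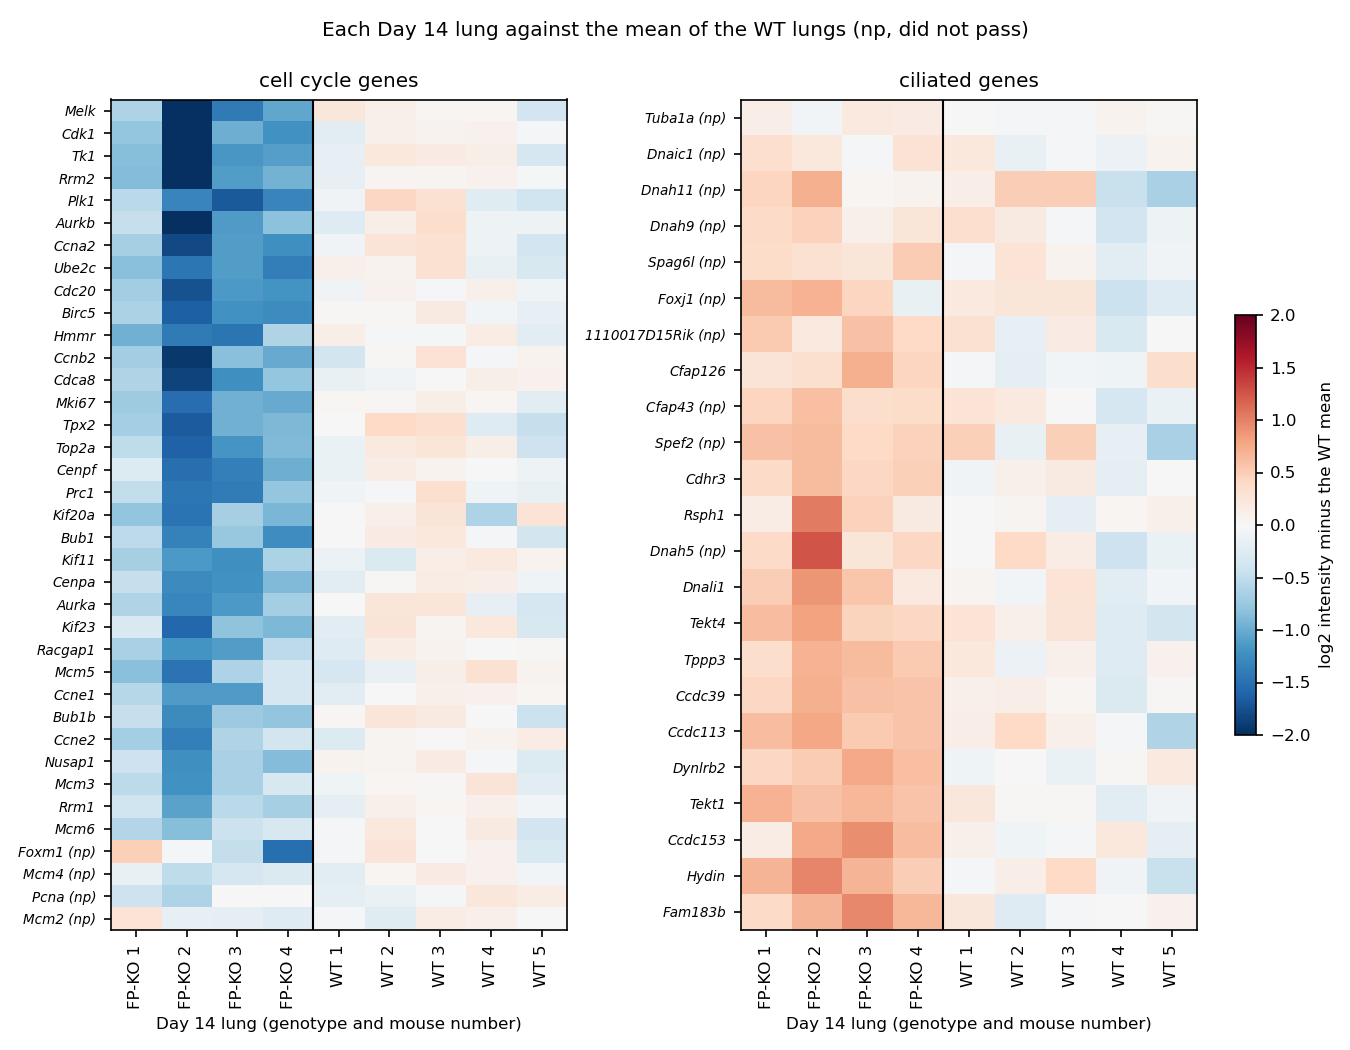
Log2 intensity of each tested cell cycle gene (left) and ciliated cell gene (right) in each Day 14 lung minus the mean of the 5 WT lungs, from deposited values floored at 24.3, FP-KO columns left of the line and WT right. Blue is lower and red higher, and np marks genes that did not pass. Most cell cycle genes are blue in all 4 FP-KO lungs and darkest in No. 2, and most ciliated genes are red in all 4, with exceptions such as Foxm1, Mcm2 and Foxj1.

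The p53 target list, the other side of growth control, fell in part: of 22 tested 5 fell and none rose (median -0.24), with Gtse1 given above, the spindle regulator Psrc1 (-1.02), the kinase Plk3 (-0.84) and the survival regulator Phlda3 (-0.64). The count was 0 without FP-KO No. 2, 2 without FP-KO No. 3 or WT No. 2 or 3 and 3 without WT No. 1. With all arrays the 5 are 22.7% of the list, against 5.64% lower of all genes. The other 17 did not pass, among them Cdkn1a, Mdm2, Ccng1 and Eda2r, named after their values were seen. Psrc1 (-0.56) and Phlda3 (-0.49) no longer passed without FP-KO No. 2. Plk3 lost its call without FP-KO No. 2, 3 or 4 or WT No. 1, 2, 3 or 4 (-1.04 to -0.55 over single leave-outs).

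Macrophage genes were lower in FP-KO lungs in part, and fewer of them passed without FP-KO No. 2. Of 24 general and alveolar macrophage markers 7 fell and 3 rose (median -0.27), and 2 fell and 1 rose without that mouse. With all arrays that is 29.2% lower and 12.5% higher, against 5.64% and 4.89% of all genes. Calls over all genes also became fewer without that mouse, at 1.66% lower and 1.59% higher. Cd68, a lysosomal glycoprotein of macrophages, fell (-0.88, adjusted p = 0.02), as did the high-affinity antibody receptor Fcgr1 (-1.01) and the scavenger receptor Msr1 (-1.01). Krt79, a keratin found in alveolar macrophages, was higher (0.97 ± 0.18, adjusted p = 0.00299). Trem2, a lipid-sensing receptor of macrophages in fibrotic lung, had 390.4, 35.2, 366 and 398 in FP-KO lungs No. 1 to 4, against 706, 749, 766, 570.4 and 642 in WT lungs No. 1 to 5. FP-KO No. 2 lay at the Day 0 level, and without it the difference of -1.72 ± 0.50 (adjusted p = 0.0309) became -0.81 and did not pass (adjusted p = 0.0948). The call was also lost without WT No. 1, 2 or 3. Of 21 genes of the Trem2 and lipid-handling list 8 fell and none rose (median -0.42), including the acid phosphatase Acp5 (-1.04 ± 0.20, adjusted p = 0.00706 without FP-KO No. 2) and the phospholipase family member Pld3 (-0.63). The count was 3 without FP-KO No. 2 and 5 without WT No. 2. The summed intensity of the macrophage list overlapped between the groups, from 103470 to 137382 in FP-KO lungs and from 103614 to 121814 in WT lungs. Cd68 (-0.49) and Msr1 (-0.62) no longer passed without FP-KO No. 2.

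Some inflammatory mediators were lower. Of 29 chemokines and receptors 10 fell and none rose (median -0.44), led by the monocyte attractants Ccl7 (-1.37 ± 0.34, FP-KO No. 2 under the floor), Ccl9 (-1.20) and Ccl8 (-1.16) and by Cxcl10 (-1.21 ± 0.25, adjusted p = 0.0045). The count was 2 without FP-KO No. 2 and 6 without WT No. 4. Il6, an inflammatory cytokine, had 37.6, 49.0, 24.6 and 59.5 in FP-KO lungs No. 1 to 4, against 83.9, 83.0, 90.8, 152 and 81.8 in WT lungs No. 1 to 5. The groups did not overlap and the difference was -1.34 ± 0.35 (adjusted p = 0.018), one of 5 deficits among 20 cytokine genes, none of which rose. The receptor antagonist Il1rn (-0.82), the interleukin 4 receptor chain Il4ra (-0.65) and the tumour necrosis factor receptor Tnfrsf1b (-0.56) were among them, and the count was 1 without FP-KO No. 2, 3 without FP-KO No. 3 or WT No. 2, 8 without FP-KO No. 1 and 9 without WT No. 5. Of 17 alternative activation genes 4 fell (median -0.40), with the transcription factor Egr2 at -1.29 ± 0.21 (adjusted p = 0.00108) and the resistin-like Retnla at -0.91, and 2 fell without FP-KO No. 2. The median of that list was -0.40 within the first set without FP-KO No. 2 and 0.08 within the second. Ccl7 (-1.25), Ccl9 (-0.77) and Il1rn (-0.70) no longer passed without FP-KO No. 2. Ccl8 lost its call without FP-KO No. 2 or WT No. 2, 3 or 4 (-1.46 to -0.73 over single leave-outs), Il6 without FP-KO No. 2 or 3 (-1.52 to -1.12) and Tnfrsf1b without FP-KO No. 2 or WT No. 2 or 4 (-0.63 to -0.33). Retnla lost its call without FP-KO No. 2 or WT No. 2 or 3 (-1.07 to -0.62).

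Complement and acute-phase genes were lower in part. Of 19 tested 7 fell, none rose, and 5 fell without FP-KO No. 2 (medians -0.43 and -0.35). Saa3, an acute-phase protein made in injured lung, had 884, 322, 644 and 1004 in FP-KO lungs No. 1 to 4, against 1755, 2859, 1829.7, 2485 and 1149 in WT lungs No. 1 to 5. The difference was -1.59 ± 0.36 with no overlap (adjusted p = 0.00836), and lost its call without FP-KO No. 2 (adjusted p = 0.0579). The complement receptor C3ar1 (-1.18 ± 0.23), the initiating chain C1qb (-1.10 ± 0.26) and the pentraxin Ptx3 (-1.06) fell too. Ptx3 lost its call without FP-KO No. 2 or 3 or WT No. 1, 2 or 3 (-1.19 to -0.90 over single leave-outs).

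Markers of lymphocytes and granulocytes rarely passed. The kinase Zap70 was the 1 T cell gene of 15 (1.66 ± 0.46, adjusted p = 0.0232), Cd72 the 1 B cell gene of 15 (-0.64) and the integrin Itgax the 1 dendritic cell gene of 20 (-0.60). These are 6.67%, 6.67% and 5% of their lists, near the shares of all genes (4.89% higher and 5.64% lower). None passed among 11 neutrophil, 3 eosinophil, mast cell and basophil, 14 NK and cytotoxic, 11 plasma cell and 9 erythroid and platelet genes tested with limma. In these lists the smallest p belonged to Lcn2 (-0.43, adjusted p = 0.0896) and Mmp8 (-0.68), Cma1 (0.56) and Siglecf (0.21), Gzma (0.63) and Ncr1 (0.58), Mzb1 (-0.25) and Ighm (-0.49), and Clec1b (0.45) and Ppbp (0.50). Interferon-stimulated genes fell in 6 of 30 beside the rise of Ifi44l (median -0.25), with the antiviral GTPases Mx1 (-0.83) and Iigp1 (-0.69 ± 0.15, adjusted p = 0.00619), and the count lower was 2 without FP-KO No. 2 and 3 without WT No. 2 or 3. Zap70 lost its call without FP-KO No. 2 or WT No. 1 or 2 (1.33 to 2.00 over single leave-outs), Cd72 without FP-KO No. 2 or 3 or WT No. 2, 3, 4 or 5 (-0.81 to -0.34) and Itgax without FP-KO No. 2 or WT No. 1, 2 or 3 (-0.71 to -0.32). Mx1 lost its call without FP-KO No. 2 or 3 or WT No. 1, 2 or 3 (-1.07 to -0.54).

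Genes of ciliated airway cells were higher in FP-KO lungs in part. Of 23 ciliated cell genes tested 13 rose, none fell, and no difference was below 0 (median 0.48). Dynlrb2, a light chain of the dynein motor, had 3362, 3596, 4263 and 3849 in FP-KO lungs No. 1 to 4, against 2381, 2525, 2307, 2554 and 2898 in WT lungs No. 1 to 5. The groups did not overlap (0.60 ± 0.089, adjusted p = 0.000737), and FP-KO No. 2 was not the highest of its group. Fam183b, a ciliary gene, had 837, 1025, 1248 and 1018 in FP-KO lungs No. 1 to 4, against 753, 536, 623, 643 and 679 in WT lungs No. 1 to 5, for 0.69 ± 0.13 (adjusted p = 0.00293) and 0.69 without FP-KO No. 2. The axoneme genes Hydin (0.67), Ccdc153 (0.64) and Tekt1 (0.60) also rose. The count higher was 5 without FP-KO No. 2 and 7 without WT No. 4, and the median was 0.31 within the first set without FP-KO No. 2 and 0.59 within the second. The summed intensity of the list ran from 34106 to 38207 in FP-KO lungs and from 27432 to 29282 in WT lungs, against 33870 to 42539 in all Day 0 lungs. Hydin (0.60) no longer passed without FP-KO No. 2.

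Ciliary genes are driven by RFX factors, whose half-site GTTGCC, which is GGCAAC on the other strand, was searched for on both strands of the same promoter windows. Of the 20 tested ciliated cell genes with a window 11 (55%) hold it, against 14.1% of 27025 genes. The windows of Dynlrb2 (chr8:116504765-116505064, plus strand, 1 half-site) and Fam183b (chr11:58801911-58802210, minus strand, 2 half-sites) are shown as members that rose and hold it, with the half-site in capitals, 5′ to 3′. As above, a match is a description of the sequence.
Dynlrb2: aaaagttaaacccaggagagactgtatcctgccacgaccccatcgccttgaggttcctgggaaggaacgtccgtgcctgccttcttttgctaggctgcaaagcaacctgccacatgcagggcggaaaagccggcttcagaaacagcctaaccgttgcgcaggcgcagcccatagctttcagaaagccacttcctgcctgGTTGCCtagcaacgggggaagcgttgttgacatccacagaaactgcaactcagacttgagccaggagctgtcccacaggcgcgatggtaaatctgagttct
Fam183b: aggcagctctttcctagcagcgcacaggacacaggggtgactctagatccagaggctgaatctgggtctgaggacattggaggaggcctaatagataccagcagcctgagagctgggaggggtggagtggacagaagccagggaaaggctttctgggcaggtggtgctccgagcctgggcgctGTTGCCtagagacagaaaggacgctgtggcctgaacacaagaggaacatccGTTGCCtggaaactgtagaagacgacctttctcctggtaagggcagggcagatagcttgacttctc

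Other epithelial lists differed in how many members passed, against 4.89% higher and 5.64% lower of all genes. Of 18 club and goblet cell genes 4 rose (22.2%) and none fell (median 0.24), Scgb3a2, a secretoglobin (0.39 ± 0.082, adjusted p = 0.00468), Cyp2f2 (0.36), Cldn10 (0.59) and Aldh1a7 (0.53), and 1 rose without FP-KO No. 2. Of 18 alveolar type 1 genes Hopx alone passed (0.24), and of 22 alveolar type 2 genes Ctsh alone (-0.52). In the list of the injured transitional state, a keratin-rich intermediate between the alveolar types, 6 of 20 fell (30%) and none rose (median -0.43), among them Itgb6, the transcription factor Sox4 (-0.46) and clusterin, Clu (-0.44). The count was 0 without FP-KO No. 2, 3 without WT No. 2, 3 or 4 and 10 without FP-KO No. 1 or WT No. 5. Cyp2f2 (0.31), Aldh1a7 (0.36) and Clu (-0.29) no longer passed without FP-KO No. 2. Cldn10 lost its call without FP-KO No. 2 or WT No. 2 (0.36 to 0.76 over single leave-outs), Hopx without FP-KO No. 2 or WT No. 2, 3 or 4 (0.21 to 0.27) and Sox4 without FP-KO No. 2 or 3 or WT No. 1, 2 or 3 (-0.52 to -0.35).

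Most listed enzymes of drug metabolism, which in lung sit mainly in club cells and endothelium, were higher in FP-KO lungs. Of 21 phase I genes 14 rose (66.7%) and none fell, at a median of 0.62, and 9 rose without FP-KO No. 2. Cyp2e1, a cytochrome P450, had 1498, 2558, 1307 and 933 in FP-KO lungs No. 1 to 4, against 690.2, 538, 529, 494 and 856 in WT lungs No. 1 to 5. All 4 FP-KO values lay above those of WT (1.32 ± 0.28, adjusted p = 0.00546), FP-KO No. 2 was the highest, and the Day 0 means were 1402 in FP-KO lungs and 2523 in WT lungs. Aldh3a1 (1.09 ± 0.25), the aldehyde oxidase Aox3 (0.99 ± 0.23) and Cyp4b1 (0.96 ± 0.16, adjusted p = 0.00141) followed. The list median was 0.58 within the first set without FP-KO No. 2 and 0.51 within the second. Of 23 genes of the NRF2 and glutathione list, which answers oxidative stress, 7 rose and 1, the heme oxygenase Hmox1, fell (median 0.19). The transferases Gsta2, Gsta3 (1.20 ± 0.17, adjusted p = 0.000428) and Gstm1 (1.03 ± 0.20) and the peroxidase Gpx2 (0.67) rose, and the count higher was 3 without FP-KO No. 2 and 4 without FP-KO No. 1 or WT No. 2 or 4. The count lower was 0 without FP-KO No. 2, 3 or 4 or WT No. 2 or 3 and 2 without FP-KO No. 1. Hmox1 was named after its values were seen. Aldh3a1 (0.91) and Aox3 (0.76) no longer passed without FP-KO No. 2. Gpx2 lost its call without FP-KO No. 1 or 2 or WT No. 2 or 4 (0.51 to 0.84 over single leave-outs).

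Some muscle genes also differed, and which tissue in the samples they came from was not tested. Of 29 cardiac and skeletal muscle genes 16 rose and none fell (median 0.65), and their summed intensity ran from 23761 to 39167 in FP-KO lungs and from 15438 to 20646 in WT lungs, against 26387 to 38821 in FP-KO lungs and 39603 to 51655 in WT lungs on Day 0. Nppa, the atrial natriuretic peptide, had 1478, 1671, 1192 and 758 in FP-KO lungs No. 1 to 4, against 397, 160, 542, 504 and 659 in WT lungs No. 1 to 5. Every FP-KO lung lay above every WT lung (1.59 ± 0.36, adjusted p = 0.0073). Cox8b, a muscle cytochrome oxidase subunit (1.40 ± 0.31), myoglobin, Mb (1.36 ± 0.30), and the creatine kinase Ckmt2 (0.99 ± 0.24) followed. The count was 5 without FP-KO No. 2, 9 without WT No. 2 and 10 without WT No. 3, and no marker of the list was at the floor on all 9 arrays. How much muscle each sample held was not measured apart, and its part in the other results was not tested. Mb (1.13) and Ckmt2 (0.84) no longer passed without FP-KO No. 2.

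Some fat genes were higher too, none of which passed without FP-KO No. 2. Of 14 adipocyte genes 5 rose and none fell (median 0.63), and the summed intensity ran from 11259 to 27638 in FP-KO lungs and from 8937 to 12721 in WT lungs, with FP-KO No. 2 the highest at 27638. Thrsp, a regulator of lipid synthesis, had 567, 772, 888 and 484 in FP-KO lungs No. 1 to 4, against 249, 198, 169, 215 and 309.9 in WT lungs No. 1 to 5, with no overlap (1.53 ± 0.38, adjusted p = 0.0127). The carbonic anhydrase Car3 (1.13), adiponectin, Adipoq (1.08), and resistin, Retn (0.91), followed. The count was 0 without FP-KO No. 2, 1 without WT No. 2 or 3, 3 without FP-KO No. 3 or WT No. 4 and 8 without FP-KO No. 4, and Ucp1 and Aqp7 were at the floor on all 9 arrays. Endothelial genes rose in 7 of 33 and fell in none (median 0.25), among them the endothelin receptor Ednrb (0.79 ± 0.15, adjusted p = 0.00327), the signalling regulator Tmem100 (0.58) and the phosphatase Ptprb (0.52 ± 0.081, adjusted p = 0.000776), and 2 rose without FP-KO No. 2. Their summed intensity ran from 125724 to 171970 in FP-KO lungs and from 110771 to 121310 in WT lungs. The 7 are 21.2% of the endothelial list, against 4.89% higher of all genes. The median of that list was 0.35 within the first set without FP-KO No. 2 but 0.03 within the second. In none of these cell type lists was the part in the matrix and cell cycle results tested. Thrsp (1.46) and Tmem100 (0.44) no longer passed without FP-KO No. 2. Car3 lost its call without FP-KO No. 2 or WT No. 2 or 3 (0.79 to 1.41 over single leave-outs), Adipoq without FP-KO No. 2 or 3 or WT No. 2, 3 or 4 (0.85 to 1.28) and Retn without FP-KO No. 2 or 3 or WT No. 2 or 3 (0.82 to 1.01).

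Of the prostanoid receptors other than FP, both called ones fell in FP-KO lungs. Ptger3, the EP3 receptor for prostaglandin E2, had 98.1, 95.4, 190 and 155 in FP-KO lungs No. 1 to 4, against 293, 325, 276, 335 and 225 in WT lungs No. 1 to 5. The groups did not overlap (-1.18 ± 0.21, adjusted p = 0.0019), and the gene lies 5.73 Mb from Ptgfr. Its Day 0 difference of -0.43 did not pass. Ptger4, the EP4 receptor, had 994, 680.2, 1053 and 1144 in FP-KO lungs No. 1 to 4, against 1521, 1588, 1633, 1496 and 1349 in WT lungs No. 1 to 5. It too was lower with no overlap (-0.69 ± 0.14, adjusted p = 0.0045). Ptger2 (-0.23, adjusted p = 0.47), the prostacyclin receptor Ptgir (-0.49, adjusted p = 0.0769) and the thromboxane receptor Tbxa2r (-0.26, adjusted p = 0.334) did not pass, and 3 of 9 receptors were too low to be tested. Of 15 prostanoid enzymes and carriers 2 rose and 2 fell (median -0.12), 13.3% each way, against 4.89% higher and 5.64% lower of all genes. Hpgd, which inactivates prostaglandins, was higher (0.45 ± 0.11, adjusted p = 0.0132), as was Cbr1 (0.28), and Akr1b8 (-0.44) and Ptgr1 (-0.36) were lower. The count higher was 0 without FP-KO No. 2 and 1 without FP-KO No. 1 or 3 or WT No. 2, 4 or 5. The count lower was 1 without FP-KO No. 2 or 3 or WT No. 2, 3 or 4. Hpgd (0.32) no longer passed without FP-KO No. 2. Cbr1 lost its call without FP-KO No. 1, 2 or 3 or WT No. 2, 4 or 5 (0.22 to 0.32 over single leave-outs) and Akr1b8 without FP-KO No. 2 or 3 or WT No. 2, 3 or 4 (-0.51 to -0.31).

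Transcripts of the kinds that respond within minutes or hours passed in part, against 4.89% higher and 5.64% lower of all genes. Of 21 immediate-early and heat shock genes 6 fell (28.6%) and none rose (median -0.19), the growth-induced factors Egr3 (-1.44 ± 0.38), Egr2 and Egr1 (-1.29 ± 0.35) and Fos (-0.83) among them. Egr1 had 1409, 1433, 1187 and 1431 in FP-KO lungs No. 1 to 4, against 4246, 4351, 3574, 2814 and 1960 in WT lungs No. 1 to 5. The count was 2 without FP-KO No. 2 and 3 without FP-KO No. 3 or WT No. 2. Of 18 circadian clock genes 3 rose (16.7%) and 1 fell (5.56%, near the share of all genes), at a median of 0.40. The repressors Ciart (0.88), Per1 (0.60) and Cry2 (0.41) were higher, and no clock gene passed without FP-KO No. 2. Of 15 glucocorticoid-responsive and metallothionein genes 3 rose (20%), Klf9 (0.66 ± 0.15, adjusted p = 0.00748), Per1 and Dusp1 (0.41), and the count was 1 without FP-KO No. 2 or WT No. 2 or 4. The labels used here give no time of day for the dissection. Egr3 (-1.15), Ciart (0.75) and Cry2 (0.31) no longer passed without FP-KO No. 2. Egr1 lost its call without FP-KO No. 2 or 3 or WT No. 1 or 2 (-1.47 to -1.18 over single leave-outs), Fos without FP-KO No. 2, 3 or 4 or WT No. 1, 2 or 3 (-1.0 to -0.68) and Per1 without FP-KO No. 1 or 2 or WT No. 2, 4 or 5 (0.43 to 0.74). Dusp1 lost its call without FP-KO No. 2, 3 or 4 or WT No. 1, 2, 3 or 4 (0.34 to 0.50).

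Housekeeping lists held few calls. None of 33 mitochondrial respiratory chain and 19 sterol and fatty acid synthesis genes passed (medians -0.05 and 0.02), and the smallest p there belonged to Ndufs4 (-0.17), Ndufa8 (-0.20), Acaca (0.29) and Acly (0.11). With arrays scaled to a common median the second of these medians was -0.03. Of 31 proteasome genes Psmd13 alone passed (-0.39), although 30 of the 31 differences were below 0. The proteasome median was -0.15, and -0.23 with a common median. Of 7 nerve and Schwann cell genes Gria1, a glutamate receptor subunit (1.25 ± 0.22), and Pmp22 (0.25) rose beside the fall of Chl1. Psmd13 (-0.33) no longer passed without FP-KO No. 2. Pmp22 lost its call without FP-KO No. 1, 2 or 3 or WT No. 2, 3 or 4 (0.22 to 0.27 over single leave-outs).

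Of the 2 lists with the most negative medians, cell cycle and fibrillar collagens, both were negative within the first set without FP-KO No. 2 (-0.61 and -0.46) and within the second (-0.88 and -0.58). They were picked by their medians over these same arrays, so their sign within the sets is no separate check. On Day 0 their medians were 0.28 and 0.22.

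**Figure D5:**
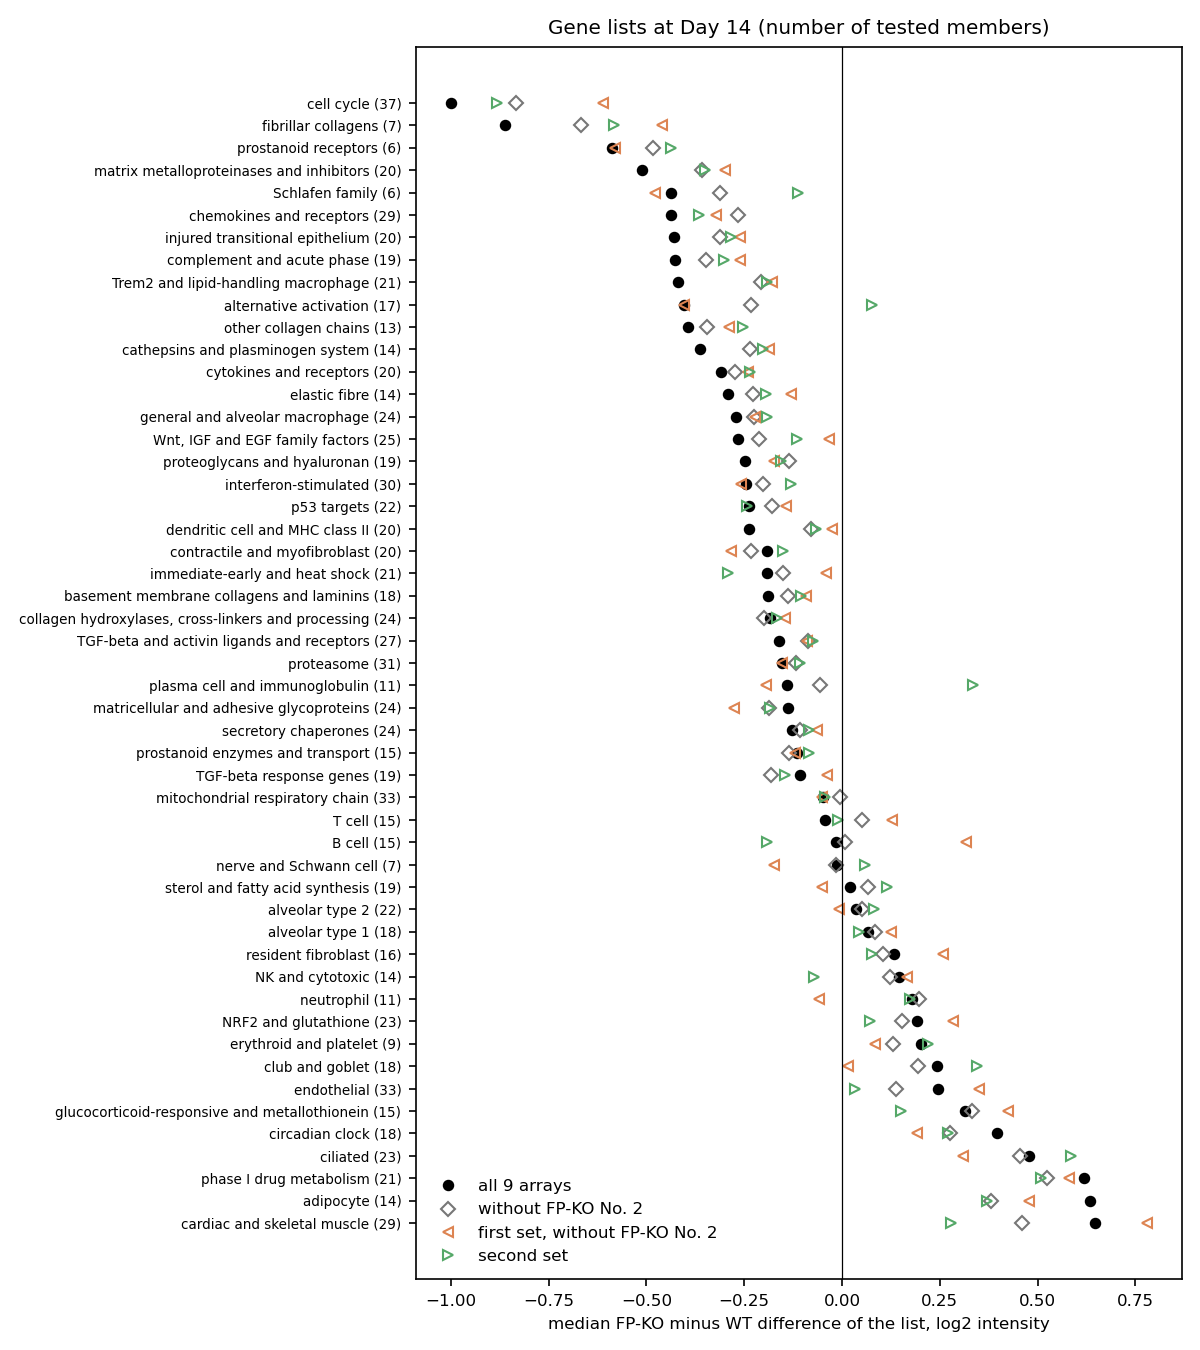
Median FP-KO minus WT difference at Day 14 (log2 intensity) of each list with at least 5 tested members, whose number is in brackets. Circles use all 9 arrays, diamonds leave out FP-KO No. 2, and triangles are the first set without it and the second set. Cell cycle genes lie lowest, at -1.0, and cardiac and skeletal muscle genes highest, at 0.65.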

How the data were processed

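The authors deposited linear intensities of 45101 probe sets on Affymetrix mouse genome arrays, and per the labels' protocols 6 ug of lung total RNA (Sepasol) was labelled. The trimmed mean is 500 on every array when 2% of values are left out at each end. No source used here names the software. Depth has no meaning for arrays, so the number of arrays limits the precision. Probe sets with 1 symbol were named from the platform annotation and 34741 of 34945 matched the RefSeq table of GRCm38.p6 by gene number. Values under 24.3, the 20th percentile, were raised to it, followed by log2 and quantile normalization, since log2 array medians spanned 0.432. Each of 18193 genes was read from its brightest probe set, and the 12062 that exceeded the array median on 4 arrays or more were tested.

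Tests used limma 3.58.1 in R 4.3.3 on 6 group means over all 25 arrays with no covariate, and tables and plots used python 3.11.15. Nothing says that mice came from separate litters or cages, so p-values measure the spread between these samples. Equal mouse numbers were not shown to pair the samples: deviations from the group means correlated at 0.237, 0.195, -0.308 and 0.437 for No. 1 to 4. The set of arrays was not taken out of these deviations. Mice No. 1, 2 and 4 of both genotypes lie in the same set and those of No. 3 do not, so the correlations cannot decide on pairing. The members, the 52 gene lists and the rule for named genes were chosen with earlier results of these data known. Named were Ptgfr, the 12 largest differences each way with no overlap between groups, the 8 smallest p each way with the set as a block and without FP-KO No. 2, and up to 4 members that passed in each list or, where none did, the 2 with the smallest p, with genes of the matrix and prostanoid receptor lists given as needed. Genes with a clone-type symbol kept their place and are not described.

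Alternatives were no normalization beyond the deposited one, a common median, other floors, an offset of 16, no filter and a stricter one, averaged probe sets, robust eBayes with a trend, array weights, Day 14 arrays alone, the set as a block, each set alone, a replicate block and leaving out each Day 14 array. The first set without FP-KO No. 2, the Day 0 contrast, the interaction and the difference between sets were chosen after seeing the data.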

Additional observations from a re-analysis of the deposited data

Results flagged for a closer look

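In 346 groups of 4 or 5 Day 14 arrays, made from the named genes and both genotypes, 24 had 1 array whose gap to its nearest neighbour, on the log2 scale after quantile normalization, was above Dixon's critical value. The intensities below are as deposited, and on that scale the same gap can be a smaller share of the range. Chance flags about 1 in 20 groups. FP-KO No. 2 was the array in 15 of the 24.

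Among matrix, macrophage and inflammatory genes FP-KO No. 2 was the lowest of its group for Thbs4 (2.5, others from 63.4), Tnc (235.4, others from 990.7), Trem2 (35.2, others from 366.4), Col5a2 (2140.4, others from 4751.6), Fcgr1 (205.5, others from 371.7), Pld3 (1099.2, others from 1770.1), Cxcl10 (102.8, others from 223.6), Tnfrsf1b (389.1, others from 672.0) and Itgax (1092.8, others from 2269.8). It was also the lowest for Rrm2 (321.2, others from 607.3), Psrc1 (159.2, others from 479.2), Bhlhe40 (1509.4, others from 2019.1) and the respiratory chain gene Ndufa8 (2265.0, others from 3244.2). It was the highest for Hpgd (21665.5, others to 15970.1) and Ckmt2 (599.8, others to 396.2).

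Of the other FP-KO arrays, No. 1 was the highest for Tgfb3 (1320.5, others to 913.7) and No. 4 for the immunoglobulin gene Ighm (10649.2, others to 5787.4). Among WT arrays, No. 5 was the lowest for Col4a2 (9241.5, others from 10496.4) and Melk (194.2, others from 260.1) and the highest for Aox3 (1975.6, others to 1629.8). WT No. 1 was the lowest for Cdk1 (820.4, others from 941.3), WT No. 4 the highest for Ereg (278.1, others to 204.1), and WT No. 3 the highest for the plasma cell gene Mzb1 (1346.1, others to 570.6) and for Aldh3a1 (271.3, others to 199.0).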

How the results depend on the processing

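Ptgfr kept its direction and its call under all alternatives run. The counts of 590 higher and 680 lower genes were 217 and 550 with a common median, 229 and 271 with the Day 14 arrays alone, 1388 and 1470 with array weights, and 154 and 161 with the set as a block and without FP-KO No. 2. They were 24 and 15 within the first set without that mouse, and 1 and 1 within the second set, where the smaller number of arrays lowers what can be called. Testing with no filter on low values gave 507 and 572. With the replicate block 899 were higher and 1012 lower, and the mouse numbers are not shown to pair the samples. Leaving out 1 array gave 192 to 739 higher and 200 to 809 lower genes. The 39 genes higher by at least 1 became 74 with array weights, 66 with the replicate block, 84 within the first set, 11 with the set as a block and without FP-KO No. 2, 8 within the first set without it, 1 within the second set and 17 to 62 with 1 array left out. The 137 lower by at least 1 became 90 with the mean of all probe sets, 221 within the first set, 28 with the set as a block and without FP-KO No. 2, 10 within the first set without it, 1 within the second set and 48 to 194 with 1 array left out. The cause of these moves was not tested.

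Of 173 named genes the call was kept or stayed absent for 148 under the common median, 163 with values as deposited, 172 with the set as a block, 97 without FP-KO No. 2, 80 with both of these, 108 with the Day 14 arrays alone, 28 within the first set without FP-KO No. 2 and 14 within the second set. That number was 149 with no filter on low values and 152 with the mean of all probe sets, where fewer genes were tested. Signs turned for Siglecf (-0.25) and Acly (-0.035) within the first set without FP-KO No. 2, for Mzb1 (0.12) and Ighm (0.41) within the second set, for Mzb1 with 1 array left out (-0.36 to 0.019, above 0 without WT No. 3) and for Psmd13 with the mean of all probe sets (0.039). Signal near the floor limits the size of differences in Ifi44l, Ptgfr, Thbs4, Fam167b, Slfn9, Ereg, Gtse1, Ifna2, Adamts4 and Ccl7.

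With a common median fewer list members passed: 7 ciliated, 2 endothelial, 2 club and goblet, 3 adipocyte and 3 NRF2 and glutathione genes were higher, as was 1 gene each of the circadian clock, glucocorticoid, macrophage, TGF-β ligand, TGF-β response, matricellular and nerve lists. In the lower direction 4 cathepsin and plasminogen system, 3 proteoglycan, 2 elastic fibre and 1 injured transitional gene passed. No prostanoid enzyme passed in either direction, and the single calls among alveolar type 1, alveolar type 2 and proteasome genes and those higher among elastic fibre genes and other collagens were lost. With values as deposited 2 genes of the injured transitional list were lower, 2 alveolar type 1, 2 alveolar type 2, 1 NK, 1 nerve and 1 prostanoid enzyme gene were higher, and no alveolar type 2 gene was lower. List medians changed sign for sterol and fatty acid synthesis (-0.03) with a common median and for nerve and Schwann cell genes (0.06) with values as deposited.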
